A study of Rattus norvegicus with 12 samples.

Results

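The genes described here are the voltage-gated sodium channels, the voltage-gated calcium channels with their accessory subunits, the hyperpolarization-activated HCN channels and the TRP channels of the C, M and V subfamilies, measured in the cortex of neonatal rats after hypoxia-ischemia. Members were all genes whose RefSeq symbol began with Cacna, Cacnb or Cacng, or with Scn, Hcn, Trpc, Trpm or Trpv and a number, whatever their changes. The rule found 67 symbols, of which 52 had a probe that could be named on the array and 42 passed the filter on dim probes, out of 9281 named genes tested. One of the 42, Trpc4ap, carries a TRP symbol but encodes a protein that binds TRPC4 and is not a channel.

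RNA was taken from 12 Wistar rats, 3 in each of 4 groups, and each was hybridised to its own single-colour Agilent Whole Rat Genome array. Injury was made by the modified Levine procedure (the Rice model) at 7 days of age, with the left carotid artery cut between ligatures, a recovery of 1 to 2 h and then 1 h in 8% oxygen at 33 °C. Injured saline pups then received 100 µl of normal saline, and injured MCI-186 pups 9 mg/kg of MCI-186 (edaravone, a free radical scavenger), both into the peritoneum and both again after 30 min. Saline controls and MCI-186 controls had no injury and were given the same saline or the same dose of MCI-186. The cortex on the injured side, or on the same side in controls, was used. The labels give an age of 2 weeks for all 4 groups and no interval between injury and collection. The arrays measured the tissue as a whole, so fewer cells of a type and less RNA per cell cannot be told apart in any result that follows. The 3 arrays of each group were together on a slide of their own, and slide and group cannot be told apart.

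Voltage-gated sodium channels open on depolarization and carry the rising phase of the action potential: a large alpha subunit forms the pore, and beta subunits set its gating and place in the membrane. Voltage-gated calcium channels are built in a like way from a pore-forming alpha1 subunit with α2δ and beta subunits, and couple firing to transmitter release, dendritic signalling and gene expression. HCN channels open on hyperpolarization and set the resting potential and rhythm of neurons, while TRP channels are cation channels that respond to lipids, oxidants, heat, stretch or chemicals and are also found in glia, immune cells and vessels. Calcium and sodium entry through many of these channels is a long-studied element of ischemic damage.

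The windows before the transcription start are shown for 3 of the genes that were higher in injured cortex in both treatment arms and for a pair of sodium channels that were lower, since these groups of genes moved in opposite directions. RefSeq windows of 250 bases upstream of the start on GRCr8 existed for 30 of the 42 genes. Capitals mark every match, on either strand, to any of 5 motifs: the GC box GGGCGG, the PU.1 core GAGGAAG, the left and right cores CAGCACC and GGACAG of the RE1 element, and the AP-1 site TGANTCA. Matches to different motifs did not overlap in these windows.
Trpm2 (chr20:10704222-10704471, plus strand): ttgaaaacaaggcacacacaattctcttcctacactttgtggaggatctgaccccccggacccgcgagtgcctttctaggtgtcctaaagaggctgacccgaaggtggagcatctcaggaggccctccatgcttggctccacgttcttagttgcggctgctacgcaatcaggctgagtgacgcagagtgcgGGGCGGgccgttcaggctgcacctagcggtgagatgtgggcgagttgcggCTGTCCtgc
Trpv4 (chr12:47598938-47599187, plus strand): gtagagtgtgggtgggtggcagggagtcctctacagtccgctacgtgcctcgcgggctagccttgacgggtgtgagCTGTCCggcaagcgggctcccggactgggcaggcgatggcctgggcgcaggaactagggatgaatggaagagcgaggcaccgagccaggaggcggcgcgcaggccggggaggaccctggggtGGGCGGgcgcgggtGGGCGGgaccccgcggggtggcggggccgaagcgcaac
Trpc6 (chr8:14043966-14044215, plus strand): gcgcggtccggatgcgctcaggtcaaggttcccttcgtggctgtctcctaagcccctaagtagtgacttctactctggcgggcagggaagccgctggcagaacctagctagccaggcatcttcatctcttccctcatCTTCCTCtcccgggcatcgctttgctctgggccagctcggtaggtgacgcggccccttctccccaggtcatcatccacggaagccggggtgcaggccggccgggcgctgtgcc
Scn2a (chr3:70710706-70710955, plus strand): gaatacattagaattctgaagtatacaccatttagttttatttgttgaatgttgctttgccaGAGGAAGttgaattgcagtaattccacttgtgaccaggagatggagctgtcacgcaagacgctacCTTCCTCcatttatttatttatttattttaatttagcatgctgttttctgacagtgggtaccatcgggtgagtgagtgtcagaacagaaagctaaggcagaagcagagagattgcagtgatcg
Scn8a (chr7:133860977-133861226, plus strand): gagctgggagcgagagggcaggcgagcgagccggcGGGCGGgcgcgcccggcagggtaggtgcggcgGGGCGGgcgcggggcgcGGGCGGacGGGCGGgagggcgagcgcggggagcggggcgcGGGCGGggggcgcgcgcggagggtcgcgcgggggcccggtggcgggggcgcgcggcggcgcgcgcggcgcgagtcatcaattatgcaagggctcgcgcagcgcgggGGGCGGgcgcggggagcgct
The 3 windows of genes that were higher held between 59.2% and 72.8% G or C. A GC box stood in the windows of Trpm2 and Trpv4, each with a right RE1 core as well, and a PU.1 core stood in that of Trpc6. The Scn8a window, at 86.0% G or C, held 6 GC boxes, whereas the Scn2a window, at 39.6%, held 2 PU.1 cores and no GC box. Among the 19 genes with a window that were lower in both arms, the median was 63.2% G or C against 52% over all 27456 windows in the table. A GC box was found in 9 of the 19 and in 32.4% of all windows, and a PU.1 core in 1 of the 19 and in 10.1% of all. No left RE1 core was found in the 19 (5.51% of all windows), a right core in 2 (18.3%) and an AP-1 site in 1 (6.36%). These are matches of letters in one window per gene and show no binding.

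Levels are given as log2 of the processed spot signal over the 75th percentile of its array, so that 0 is the signal of a spot at that percentile and each unit is a factor of 2. A gene is called higher or lower where limma's p, adjusted over all 25901 features tested, was under 0.05. Between 65.1% and 73.7% of the spots that were not controls were well above background on each array, and arrays of 1 group correlated at 0.982 to 0.995. Of the 42 genes, 39 were well above background on all 12 arrays. The other 3 passed the filter through some groups only, Cacng4 through both injured groups, Cacng6 through both saline groups and Trpm8 through the MCI-186 controls, so a difference between groups in these 3 is partly set by the filter. Another 10 genes had a probe but did not pass, among them Scn4a, Scn10a, Cacna1f, Cacng1, Cacng5, Hcn4, Trpc5, Trpm1 and Trpv5. The remaining 15 symbols had no probe that could be named and were not analysed here, among them Scn7a, Cacna1d, Cacna1h, Cacna1s, Cacna2d4, Trpc2, Trpc5os, Trpc7, Trpm3 to Trpm7 and Trpv3.

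In injured cortex most of the sodium, calcium and HCN channel genes were lower, and a small set of TRP channels was higher. In saline pups 31 of the 42 genes were lower and 5 higher, with a median log2 difference of -0.91, while over all named genes 30.4% were lower, 24.9% were higher and the median was -0.09. In MCI-186 pups 30 were lower and 4 higher, with a median of -0.86, against 31.4% lower, 25.6% higher and a median of -0.08 over all named genes. Counted over genes well above background on all 12 arrays, 30 of 39 were lower in saline pups and 28 of 39 in MCI-186 pups, where the share of all named genes was 31.8% and 33.3%. Called falls of at least 2-fold were found for 13 genes in saline pups (4.53% of all named genes) and 14 in MCI-186 pups (4.44%). Called rises of at least 2-fold were found for 1 gene in saline pups (13.5% of all named genes) and 3 in MCI-186 pups (14.0%). The values of injured and control pups did not overlap for 36 genes in saline pups, where 64.0% of all named genes had no overlap, and for 38 in MCI-186 pups, where the share was 69.9%.

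**Figure D1:**
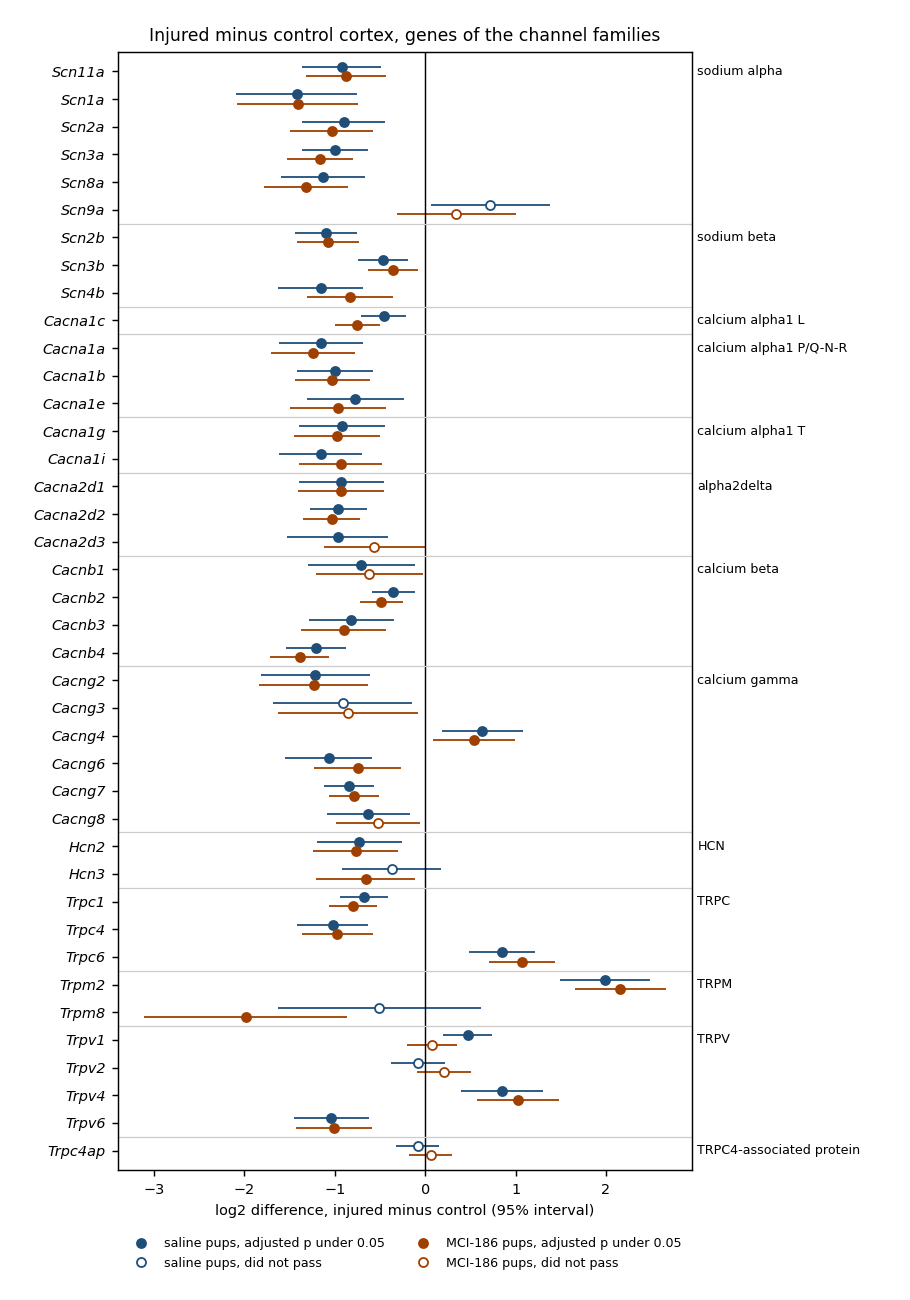
Log2 difference between injured and control cortex for 40 of the 42 genes, ordered by channel class, with 95% intervals from the fit, in saline pups (blue) and MCI-186 pups (brown); filled points passed an adjusted p of 0.05. Most sodium, calcium and HCN genes lie near -1, and Trpm2, Trpc6 and Trpv4 lie to the right of 0 in both arms.

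The arms used different animals throughout, so each is a separate measurement of the injury. Lower in both arms were 28 genes, which is 90.3% of those lower in saline pups and 93.3% of those lower in MCI-186 pups. Of all named genes 25.7% were lower in both arms, which is 84.4% and 81.7% of those lower in each, so most genes called lower in one arm were called in the other whether or not they were channel genes. Cacna2d3, Cacnb1 and Cacng8 passed in saline pups only, and Hcn3 and Trpm8 in MCI-186 pups only. Trpm2, Trpc6, Trpv4 and Cacng4 were higher in both arms, and Trpv1 passed in saline pups only. By comparison, 22.2% of all named genes were higher in both arms, a larger share than among the channel genes tested. No channel gene was called in opposite directions.

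Of the pore-forming sodium channel genes 5 of 6 tested were lower in each arm, where 30.4% (saline) and 31.4% (MCI-186) of all named genes were. Scn1a, the main sodium channel of fast-spiking interneurons, stood at 0.51, 0.69 and 1.20 in saline controls and at -0.15, -0.52 and -1.19 in injured saline pups. It stood at 0.68, 0.75 and 0.77 in MCI-186 controls and at -0.82, -0.10 and -1.10 in injured MCI-186 pups. All 6 injured pups lay below all 6 controls. The log2 difference was -1.42 (SE 0.30, limma adjusted p = 0.0034) in saline pups and -1.41 (SE 0.30, adjusted p = 0.0032) in MCI-186 pups, or 37.4% and 37.6% of the control level.

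Scn8a, which encodes the channel concentrated at the axon initial segment and nodes of Ranvier, fell from 1.18, 1.02 and 1.00 in saline controls to 0.32, -0.10 and -0.40 in injured saline pups. In MCI-186 pups it fell from 1.07, 1.03 and 1.06 to -0.65, 0.17 and -0.33. Controls of both arms were tightly grouped and injured pups scattered below them, with differences of -1.13 (SE 0.21, limma adjusted p = 0.0017) and -1.32 (SE 0.21, adjusted p = 0.00069). Scn3a, the channel that prevails in the embryonic and newborn brain, changed by -0.996 (SE 0.17, adjusted p = 0.0010) and -1.16 (SE 0.17, adjusted p = 0.00039). Scn2a, the channel of immature axons and excitatory neurons, changed by -0.90 (adjusted p = 0.0053) and -1.03 (adjusted p = 0.0024), and its second probe gave -1.05 and -1.41. Scn11a, best known from pain-sensing neurons of the periphery, was lower by -0.92 and -0.88, and by -0.52 and -0.56 with normexp background correction.

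Scn9a, another channel of peripheral sensory and sympathetic neurons, was the exception. It stood at -3.74, -4.85 and -4.59 in saline controls and at -3.57, -3.95 and -3.51 in injured saline pups. The groups overlapped, and the difference of 0.72 (95% interval 0.06 to 1.38) had a limma adjusted p of 0.066. In MCI-186 pups the difference was 0.34 (-0.31 to 1.00, adjusted p = 0.35). Without the first saline control, the highest of the 3, the saline difference was 1.05 with an adjusted p of 0.011. Over the 16 alternatives it ranged from 0.31 to 1.05, with adjusted p up to 0.23, and it passed under 2.

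Sodium channel genes lie in clusters in the rat genome. Scn3a and Scn2a are adjacent on chromosome 3, and 4 protein-coding genes separate them from the adjacent pair Scn1a and Scn9a. Of these neighbours Scn3a, Scn2a and Scn1a were lower in both arms, and Scn9a did not pass in either. Scn2b and Scn4b, adjacent on chromosome 8, were both lower.

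The sodium channel beta subunit genes reported here were lower in both arms. Scn2b, a covalently bound beta subunit, stood at -3.22, -2.66 and -3.00 in saline controls and at -4.03, -3.97 and -4.19 in injured saline pups. It stood at -2.96, -3.02 and -2.99 in MCI-186 controls and at -4.27, -3.80 and -4.12 in injured MCI-186 pups. All 6 injured pups lay below all 6 controls. Scn2b was lower by -1.10 (SE 0.15, limma adjusted p = 0.00041) and -1.07 (SE 0.15, adjusted p = 0.00041). Scn4b, the subunit linked to resurgent current, was lower by -1.16 (adjusted p = 0.0017) and -0.83 (adjusted p = 0.00835). Scn3b changed least of these, by -0.46 (adjusted p = 0.011) and -0.36 (adjusted p = 0.034). Its MCI-186 call was lost under 7 of 16 alternatives. Among these were quantile normalization (-0.15) and leaving out the first injured MCI-186 pup (-0.23).

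**Figure D2:**
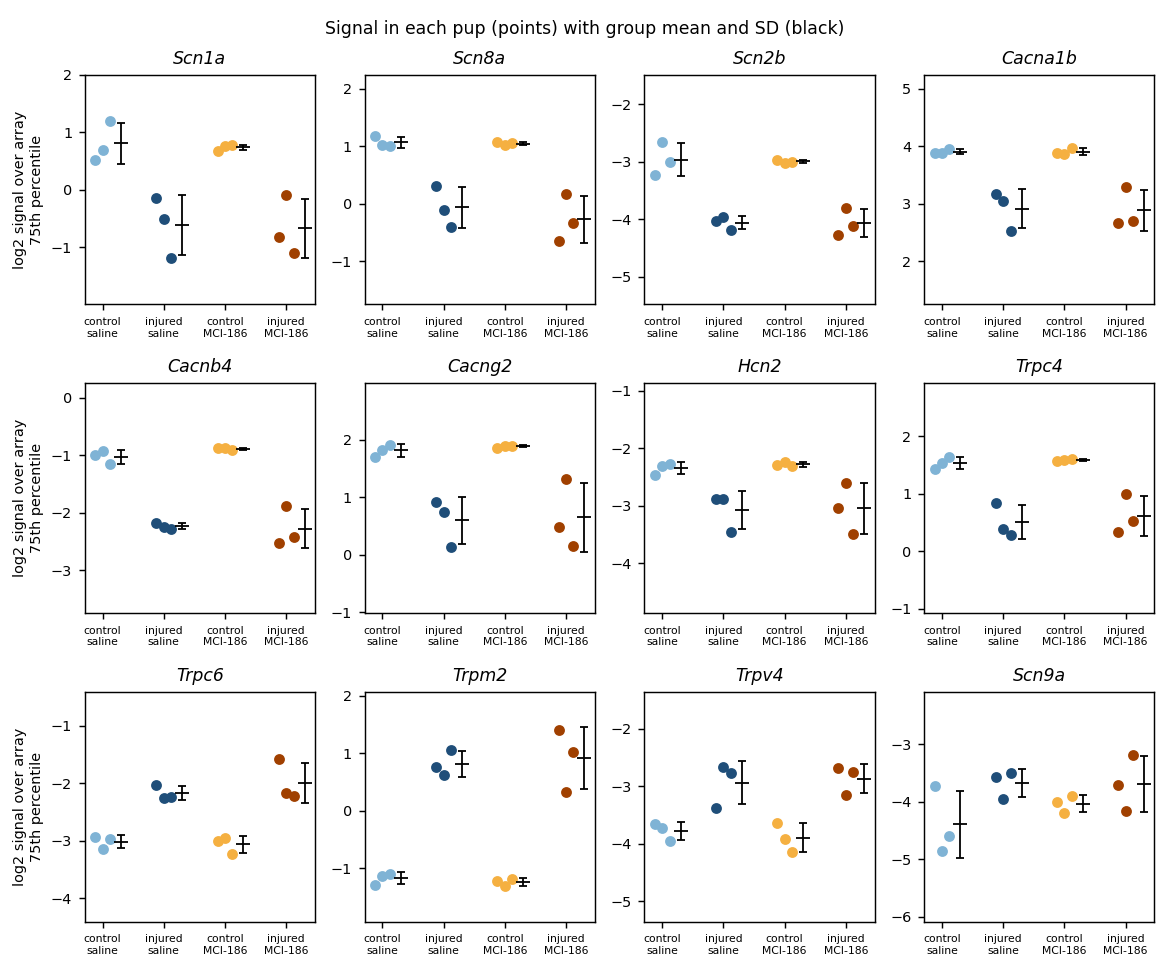
Signal of each pup (points, log2 over the array's 75th percentile) for 12 genes in the 4 groups, with group mean and SD in black; every panel spans 4 log2 units. Scn1a to Trpc4 lie lower in the injured pups of both arms, Trpc6, Trpm2 and Trpv4 lie higher, and the groups of Scn9a overlap.

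Partners that anchor sodium channels at the axon initial segment and the node were also lower. Of 16 such genes 11 were tested, and 8 were lower in saline pups and 9 in MCI-186 pups, with none higher and medians of -0.75 and -0.81. Over all named genes 30.4% were lower and 24.9% higher in saline pups, and 31.4% and 25.6% in MCI-186 pups. Contactin-2 (Cntn2) changed by -1.01 and -0.90, and Cntnap1, which joins the paranode to the axon, by -1.30 and -1.03. The intracellular fibroblast growth factors, which bind the channel's tail, changed by -0.96 and -1.01 (Fgf12) and by -0.75 and -0.81 (Fgf13). Among other sodium-conducting channels 5 of 11 were tested. The acid-sensing channel genes Asic1 (-0.57 and -0.61) and Asic4 (-0.83 and -0.77) were lower in both arms and Asic2 in saline pups (-0.74, limma adjusted p = 0.026, against -0.58, adjusted p = 0.063). The epithelial sodium channel gene Scnn1a was higher in both, by 1.36 (adjusted p = 2.5e-05) and 0.99 (adjusted p = 0.00016), from a dim probe well above background on 10 of 12 arrays.

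All 6 tested genes for pore-forming calcium channel subunits were lower in both arms, where 25.7% of all named genes were. Cacna1a, Cacna1b and Cacna1e encode the P/Q-, N- and R-type channels that trigger transmitter release. Cacna1b stood between 3.87 and 3.97 in all 6 controls. It stood at 3.16, 3.05 and 2.53 in injured saline pups and at 2.66, 3.29 and 2.69 in injured MCI-186 pups. Every injured pup was below that narrow control range, with differences of -0.99 (SE 0.19, limma adjusted p = 0.0020) and -1.02 (SE 0.19, adjusted p = 0.0015). Cacna1a changed by -1.15 (SE 0.21, adjusted p = 0.0016) and -1.24 (SE 0.21, adjusted p = 0.00093). Cacna1e changed by -0.77 (adjusted p = 0.022) and -0.96 (adjusted p = 0.0074), and its 3 other probes were lower in both arms as well. Without the third injured saline pup its saline difference was -0.50 (adjusted p = 0.077).

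The T-type genes, whose channels open near rest and support burst firing, were lower in both arms. Cacna1g changed by -0.92 (SE 0.21) and -0.97 (SE 0.21), and Cacna1i by -1.16 (SE 0.21) and -0.93 (SE 0.21), with limma adjusted p between 0.0015 and 0.0057. With normexp background correction the differences of Cacna1i were -0.62 and -0.60. The tested L-type gene, Cacna1c, which links calcium entry to transcription in neurons, had smaller differences, -0.46 (SE 0.11, adjusted p = 0.0070) and -0.75 (SE 0.11, adjusted p = 0.00048).

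Genes for the subunits that carry calcium channels to the membrane were lower too. Of the α2δ genes, Cacna2d1, which encodes the receptor of gabapentin, changed by -0.93 in both arms (SE 0.21, limma adjusted p = 0.0052 and 0.0047). Cacna2d2, a dim probe, changed by -0.96 (adjusted p = 0.00059) and -1.03 (adjusted p = 0.00034), and by -0.44 and -0.57 with normexp background correction. Cacna2d3 passed in saline pups (-0.97, adjusted p = 0.0099) and not in MCI-186 pups (-0.56, 95% interval -1.12 to 0.00, adjusted p = 0.086). In the latter the second injured pup stood at 1.98, near the control range of 2.05 to 2.14, and the others at 1.53 and 1.12. Without that pup the difference was -0.78 (adjusted p = 0.025), the only 1 of 16 alternatives under which it passed.

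Among beta subunits, Cacnb4, whose mutation causes ataxia and absence-like seizures in mice, had the lowest adjusted p of the channel genes that fell. It stood between -1.15 and -0.87 in all 6 controls. It stood at -2.18, -2.24 and -2.28 in injured saline pups and at -2.52, -1.88 and -2.42 in injured MCI-186 pups. Every injured pup lay below every control, and the 3 injured saline pups lay close together. The differences were -1.21 (SE 0.15, limma adjusted p = 0.00019) and -1.38 (SE 0.15, adjusted p = 7.2e-05), or 43.3% and 38.3% of the control level. Cacnb3 changed by -0.82 (adjusted p = 0.0095) and -0.90 (adjusted p = 0.0054). Cacnb2 changed by -0.35 (adjusted p = 0.020) and -0.49 (adjusted p = 0.0039), but its second probe did not pass, at -0.41 (adjusted p = 0.069) and -0.20 (adjusted p = 0.35). Cacnb1 lay at the threshold, with -0.71 (adjusted p = 0.048) and -0.62 (adjusted p = 0.073). Its saline call was lost under 10 of 16 alternatives (adjusted p up to 0.18).

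The gamma family was mixed. Cacng2 encodes stargazin, which carries AMPA-type glutamate receptors to the synapse. It stood between 1.70 and 1.91 in all 6 controls, at 0.91, 0.74 and 0.14 in injured saline pups, and at 0.48, 1.32 and 0.15 in injured MCI-186 pups. All injured pups were lower than all controls, with differences of -1.21 (SE 0.27, limma adjusted p = 0.0045) and -1.23 (SE 0.27, adjusted p = 0.0038). Cacng7, at -0.84 (adjusted p = 0.00055) and -0.79 (adjusted p = 0.00067), and the dim Cacng6, at -1.07 (adjusted p = 0.0029) and -0.74 (adjusted p = 0.016), were lower in both arms. With normexp background correction the differences of Cacng6 were -0.42 and -0.44, and without the third injured MCI-186 pup that of MCI-186 pups was -0.47. Cacng8, a relative of stargazin abundant in hippocampus, passed in saline pups (-0.63, adjusted p = 0.029) and not in MCI-186 pups (-0.52, adjusted p = 0.057). Without the third injured saline pup its saline difference was -0.41 (adjusted p = 0.11). Cacng3, a close relative, did not pass, at -0.91 (95% interval -1.69 to -0.14, adjusted p = 0.050) and -0.85 (-1.62 to -0.08, adjusted p = 0.062), though it did under 8 of 16 alternatives in saline pups and 3 of 16 in MCI-186 pups. Cacng6, Cacng8 and Cacng7 are adjacent on chromosome 1.

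Cacng4, a stargazin relative expressed early in development and in glia, went the other way. It stood at -4.82, -5.16 and -5.48 in saline controls and at -4.90, -4.12 and -4.55 in injured saline pups. It stood at -5.20, -4.90 and -5.18 in MCI-186 controls and at -4.56, -4.56 and -4.55 in injured MCI-186 pups. Injured MCI-186 pups were all above their controls, whereas 1 injured saline pup lay within the range of its controls. The differences were 0.63 (SE 0.20, limma adjusted p = 0.025) and 0.54 (SE 0.20, adjusted p = 0.047). They rest on a probe that was well above background on 9 of 12 arrays, and with normexp background correction they were 0.056 (adjusted p = 0.67) and -0.028 (adjusted p = 0.83). The call of Cacng4 was kept under 9 of 15 alternatives in saline pups and under 5 of 15 in MCI-186 pups.

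Genes that regulate calcium channels or hold them at the release site were mostly lower. Of 17 listed 12 were tested, and 8 were lower and none higher in saline pups, with 9 lower and 1 higher in MCI-186 pups and medians of -0.64 and -0.69. Shares of all named genes were 30.4% lower and 24.9% higher in saline pups, and 31.4% and 25.6% in MCI-186 pups. Rims1 and Rims2 tether calcium channels to synaptic vesicles and changed by -1.43 and -1.57 and by -1.05 and -1.04. Ppp3ca, the catalytic subunit of calcineurin, changed by -1.02 and -1.03. Calm2, a calmodulin gene, changed by -0.68 and -0.61.

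Genes of intracellular calcium release, store-operated entry and calcium extrusion had calls in both directions, as did all named genes (30.4% lower and 24.9% higher in saline pups, 31.4% and 25.6% in MCI-186 pups). Of 20 listed 15 were tested, with 5 lower and 2 higher in saline pups, 6 lower and 3 higher in MCI-186 pups, and medians of -0.15 and -0.51. Itpr1, the main inositol trisphosphate receptor of neurons, changed by -0.90 and -0.80, and the plasma membrane calcium pump gene Atp2b3 by -0.90 and -1.10. Itpr2, the receptor that prevails in astrocytes, was higher by 1.12 (limma adjusted p = 0.00090) and 1.18 (adjusted p = 0.00060). Orai1, the pore of store-operated calcium entry, was higher by 0.84 (adjusted p = 0.00052) and 1.05 (adjusted p = 0.00012).

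Of the HCN genes, Hcn2, prominent in thalamus and in rhythmic firing, was lower in both arms. It stood at -2.47, -2.31 and -2.27 in saline controls and at -2.88, -2.89 and -3.46 in injured saline pups. It stood at -2.29, -2.24 and -2.31 in MCI-186 controls and at -3.03, -2.61 and -3.49 in injured MCI-186 pups. Every injured pup lay below every control, with differences of -0.73 (SE 0.21, limma adjusted p = 0.016) and -0.77 (SE 0.21, adjusted p = 0.012). Without the third injured saline pup its saline difference was -0.54 (adjusted p = 0.064). Hcn3 passed in MCI-186 pups only, at -0.66 (adjusted p = 0.046) against -0.37 (95% interval -0.92 to 0.18, adjusted p = 0.24) in saline pups, where the third control at -2.19 lay below 2 of the 3 injured pups. Without that control the saline difference was -0.62 (adjusted p = 0.044). The MCI-186 call of Hcn3 was lost under 8 of 16 alternatives (adjusted p up to 0.16). Of 4 listed HCN partners 2 were tested. Pex5l, the TRIP8b protein that sorts HCN channels into dendrites, changed by -1.31 (adjusted p = 0.00076) and -1.29 (adjusted p = 0.00040), with the spot of 1 saline control left out as an outlier. Kcne2, an accessory subunit, did not pass (-0.42 and 0.11).

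Calls in both directions were found among the TRP channels. Of the 32 sodium, calcium and HCN genes 28 were lower and 1 higher in saline pups and 26 lower and 1 higher in MCI-186 pups. Of the 9 TRP channel genes 3 were lower and 4 higher in saline pups, and 4 lower and 3 higher in MCI-186 pups. These counts stand beside shares of all named genes of 30.4% lower and 24.9% higher in saline pups and 31.4% and 25.6% in MCI-186 pups. Trpm2 encodes a calcium-permeable channel that opens on ADP-ribose and oxidants and is found in neurons, microglia and other myeloid cells. It stood at -1.29, -1.13 and -1.10 in saline controls and at 0.76, 0.62 and 1.07 in injured saline pups. It stood at -1.21, -1.31 and -1.19 in MCI-186 controls and at 1.40, 0.33 and 1.03 in injured MCI-186 pups. Every injured pup lay above every control, on the other side of 0. The rise was 3.97-fold in saline pups (log2 difference 1.99, SE 0.23, limma adjusted p = 0.00011) and 4.46-fold in MCI-186 pups (2.16, SE 0.23, adjusted p = 6.3e-05).

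Trpc6, a channel gated by diacylglycerol, rose from -2.94, -3.15 and -2.96 to -2.02, -2.25 and -2.24 in saline pups. In MCI-186 pups it rose from -3.00, -2.95 and -3.22 to -1.58, -2.17 and -2.22. The groups did not overlap, and the differences were 0.85 (SE 0.16, limma adjusted p = 0.0022) and 1.07 (SE 0.16, adjusted p = 0.00058). The other TRPC channels tested went down: Trpc4, a receptor-operated channel of cortical neurons, by -1.02 (SE 0.18, adjusted p = 0.0012) and -0.97 (SE 0.18, adjusted p = 0.0014), and Trpc1, which joins other TRPC subunits, by -0.68 (SE 0.12, adjusted p = 0.0014) and -0.80 (SE 0.12, adjusted p = 0.00054).

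Trpv4, which responds to cell swelling and warmth and is found in astrocytes and endothelium as well as neurons, stood at -3.66, -3.73 and -3.96 in saline controls and at -3.37, -2.67 and -2.77 in injured saline pups. It stood at -3.64, -3.92 and -4.14 in MCI-186 controls and at -2.69, -3.16 and -2.76 in injured MCI-186 pups. Controls and injured pups did not overlap, and the differences were 0.85 (SE 0.20, limma adjusted p = 0.0068) and 1.03 (SE 0.20, adjusted p = 0.0023). With normexp background correction they were 0.46 (adjusted p = 0.013) and 0.56 (adjusted p = 0.0042). Trpv6, known for calcium uptake in epithelia, was lower by -1.04 (SE 0.19, adjusted p = 0.0016) and -1.01 (SE 0.19, adjusted p = 0.0016). Trpv1, the capsaicin and heat receptor, was higher in saline pups only (0.47, SE 0.12, adjusted p = 0.010, against 0.07, SE 0.12, adjusted p = 0.65). The probe of Trpv1 was dim, with means of -5.10 in saline controls and -5.09 in MCI-186 controls. With normexp background correction the saline difference of Trpv1 was 0.07 (adjusted p = 0.47). Trpv2 did not pass in either arm (-0.08, 95% interval -0.38 to 0.22, and 0.21, -0.09 to 0.51), nor did Trpc4ap (-0.08, -0.32 to 0.16, and 0.06, -0.18 to 0.30).

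Trpm8, the menthol and cold receptor, was dim. It stood at -5.60, -5.73 and -7.05 in injured MCI-186 pups and at -4.34, -4.48 and -3.62 in MCI-186 controls, the only group in which it was above background on all 3 arrays. The difference there was -1.98 (SE 0.51, limma adjusted p = 0.0081), whereas that in saline pups was -0.51 (SE 0.51, 95% interval -1.63 to 0.61, adjusted p = 0.42). With normexp background correction the MCI-186 difference was -0.90 (adjusted p = 0.00093). Of the 8 listed TRP relatives outside these subfamilies, 1 was tested, the lysosomal channel gene Mcoln1, which was lower by -0.40 (adjusted p = 0.0074) and -0.41 (adjusted p = 0.0059). Trpa1, Pkd2l2, Mcoln2 and Mcoln3 were on the array below the filter.

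**Figure D3:**
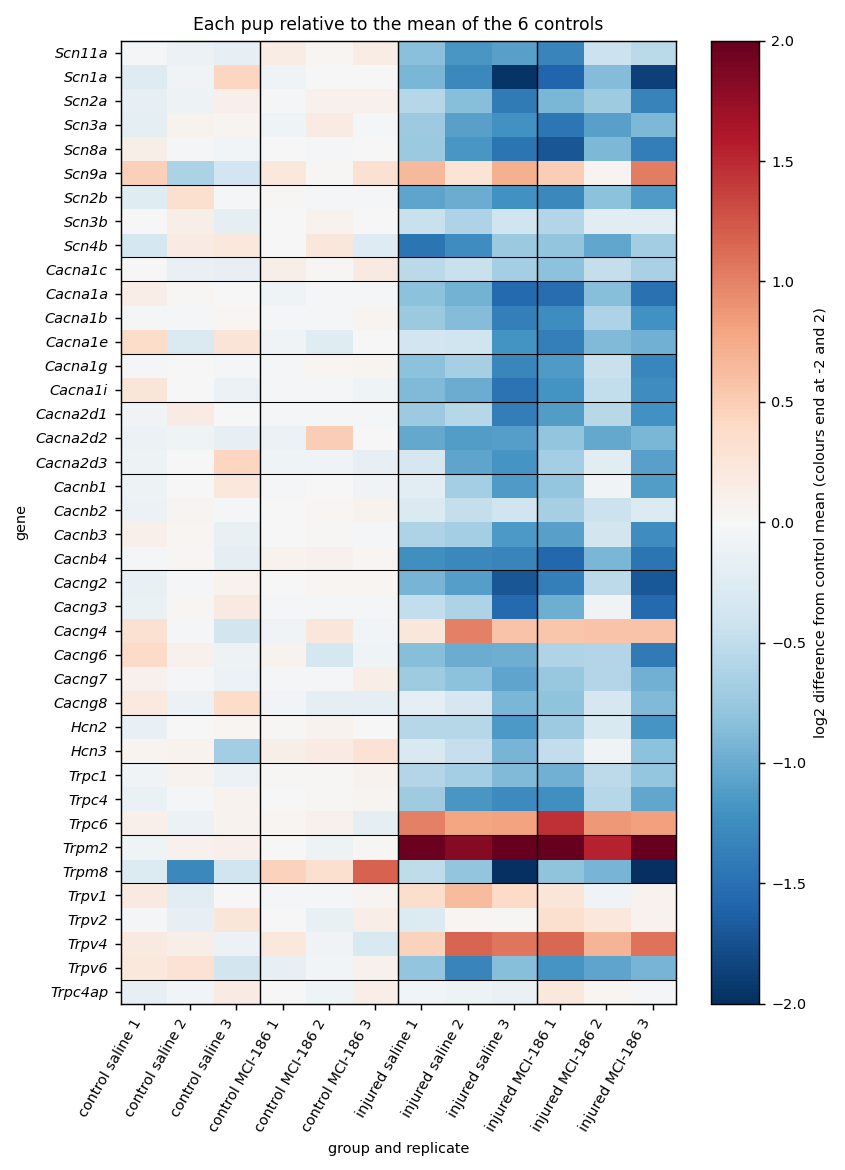
Of the 42 genes, 40 in each of the 12 pups, as the log2 difference from the mean of the 6 controls (blue lower, red higher, colours end at -2 and 2), with genes ordered by channel class. The second injured MCI-186 pup is paler than the other injured pups, and Trpm2, Trpc6 and Trpv4 are red in all 6 injured pups.

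The 6 injured pups differed in the size of the change. Over the 28 genes lower in both arms, the median deviation from the control mean of the same arm was -0.76, -1.001 and -1.23 in the 3 injured saline pups and -1.15, -0.60 and -1.19 in the 3 injured MCI-186 pups. These genes were chosen as lower in the same pups, so their shared direction is no finding. The second injured MCI-186 pup had the highest value of the 6 for 18 of the 28 genes. The lowest value was in the third injured saline pup for 10 and in the first injured MCI-186 pup for 9. Without the second injured MCI-186 pup 37 genes were called in that arm and without the third injured saline pup 30 were called in the other.

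Markers of cell types moved with the channel genes, and their part in these results was not tested. Of 10 tested pan-neuronal markers 7 were lower in saline pups and 9 in MCI-186 pups, with medians of -0.93 and -0.83, close to those of the channel genes. Map2 changed by -1.02 and -0.86, Nefm by -1.62 and -1.49, Nefl by -1.57 and -1.60, and Syt1 by -0.91 and -1.12. The summed signal of the list, in units of the 75th percentile, was 295 to 313 in saline controls, 312 to 320.1 in MCI-186 controls, 149.9 to 222.8 in injured saline pups and 162.8 to 235.2 in injured MCI-186 pups. By pup, the median deviation of this list was -0.64, -0.81 and -1.28 in injured saline pups and -0.95, -0.38 and -1.23 in injured MCI-186 pups, least in the same pup in which the channel genes were least changed. Of the neuronal subtypes, 4 of 7 excitatory markers were lower in both arms and 5 of 8 inhibitory markers in saline pups and 7 in MCI-186 pups, and no marker of either list was higher. The labelled tissue is cortex, and the markers Slc17a7, Neurod2 and Fezf2 of cortical excitatory neurons were above background on all 12 arrays. All 9 markers of striatum were measured as well, of which 3 were lower and 1 higher in saline pups and 5 lower in MCI-186 pups. Beside these marker counts, 30.4% of all named genes were lower and 24.9% higher in saline pups. In MCI-186 pups these shares were 31.4% and 25.6%.

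Many markers of non-neuronal cells were higher in the same pups as Trpm2, Trpc6 and Trpv4. All 14 microglia and macrophage markers were higher in both arms, with medians of 3.15 and 3.02. Among them Gpnmb rose by 5.64 and 5.19, Cd68 by 5.42 and 5.43, Cd74 by 4.02 and 4.71, and Tyrobp by 3.29 and 3.06. Their summed signal was 35.7 to 45.5 in saline controls, 42.3 to 47.1 in MCI-186 controls, 282 to 402 in injured saline pups and 222 to 411 in injured MCI-186 pups. Of 11 astrocyte markers 7 were higher and 2 lower in saline pups and 8 higher and 2 lower in MCI-186 pups. Of 8 tested mural cell and fibroblast markers 7 were higher and 1 lower in both arms, and of 5 tested choroid plexus and ependyma markers 4 and 5 were higher, while Ttr, Kl and Clic6 were below the filter. Of 6 tested markers of circulating leukocytes 6 were higher in saline pups and 4 in MCI-186 pups, with medians of 2.97 and 1.81, while Cd3e was below the filter. These 6 were dim in controls, with a mean of -6.48 to -5.92 on saline arrays and -5.86 to -5.53 on MCI-186 arrays. Their calls may therefore be partly set by the filter. Of 8 tested endothelial markers 3 were higher and 3 lower in both arms, with medians of -0.15 and -0.14. Shares of all named genes, beside every count in this paragraph, were 24.9% higher and 30.4% lower in saline pups. In MCI-186 pups they were 25.6% and 31.4%. Of 5 tested markers of oligodendrocyte progenitors 3 were higher in saline pups, and 2 were higher and 1 lower in MCI-186 pups. Of 10 myelin markers 1 was lower and 1 higher in saline pups, and 8 were lower and 1 higher in MCI-186 pups. For the difference between the injury effects 0 of the 10 passed (lowest limma adjusted p = 0.71), and 0 did between injured MCI-186 and injured saline pups. All 10 were negative in both comparisons, with medians of -1.22 and -0.81. An unadjusted limma p under 0.05 was found for 6 and 7 of them. The part of these cells in the channel genes that rose was not tested.

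No channel gene was called between MCI-186 and saline pups of the same injury state. Between injured MCI-186 and injured saline pups 0 of the 42 genes passed limma's adjusted p, and 0.0% of all named genes did. The log2 differences lay between -0.41 and 0.31 with a median of -0.01. The 95% intervals of the 39 genes above background on all arrays reached from -0.94 to 0.79. Changes of close to 2-fold in single genes, or larger where injured pups scattered more than controls, cannot be set aside by these data. At an unadjusted p under 0.05 stood 1 gene, Trpv1, at -4.74, -4.46 and -4.69 in injured saline pups and -4.86, -5.17 and -5.02 in injured MCI-186 pups (-0.38, SE 0.12, unadjusted p = 0.011, limma adjusted p = 1.00). Trpv1 was lower without overlap, and Trpv2 and Trpc4ap were higher without overlap; these are 3 of 42, where 4.14% of all named genes had no overlap. For Trpm2 the difference was 0.11 (95% interval -0.39 to 0.60) and for Scn1a -0.06 (-0.72 to 0.61). The fit shares 1 spread per gene over the 4 groups. For Trpm2 the SD was 0.23 and 0.54 in injured saline and injured MCI-186 pups, against 0.11 and 0.07 in their controls. For Scn1a it was 0.53 and 0.52, against 0.35 and 0.05. The intervals of these genes between injured groups are thus narrower than the injured pups alone would give.

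Between MCI-186 and saline controls 0 of the 42 passed, where 0.14% of all named genes did. The values did not overlap for 6 of the 42 (27.6% of all named genes), namely Scn11a, Cacna1c, Cacnb4, Hcn3 and Trpm8 higher and Cacna1a lower with MCI-186. The only gene at an unadjusted p under 0.05 was Trpm8 (1.31, unadjusted p = 0.026, limma adjusted p = 0.48), which had passed the filter through the MCI-186 controls alone. For the difference between the injury effects of the arms, 0 of 42 passed (0.0215% of all named genes), with values from -1.47 for Trpm8 to 0.41. Trpv1 had the only unadjusted p under 0.05 there (-0.40, 95% interval -0.79 to -0.01, unadjusted p = 0.046, limma adjusted p = 1.00). The genes that passed in one arm only are therefore not shown to differ between arms.

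**Figure D4:**
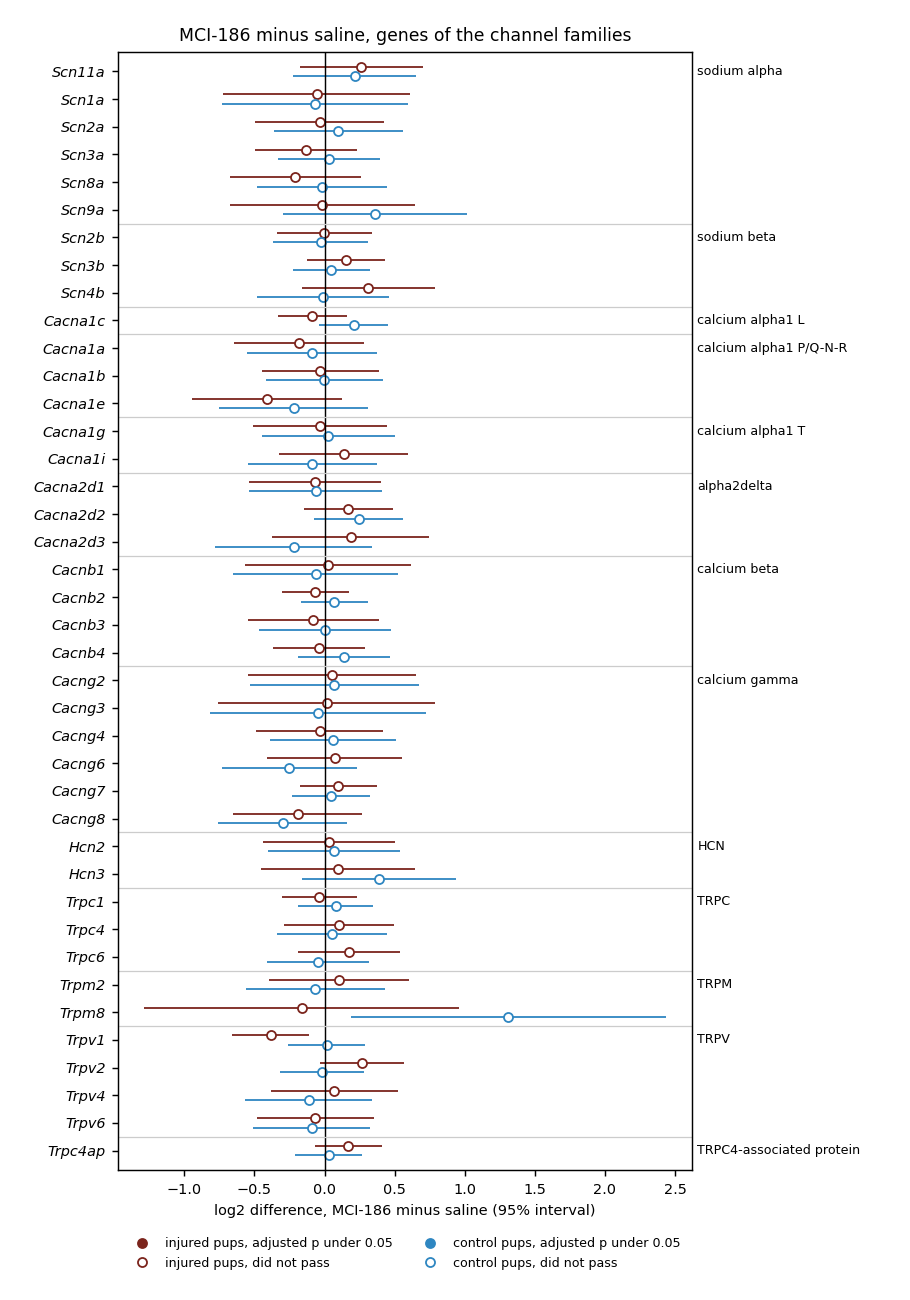
Log2 difference between MCI-186 and saline for 40 of the 42 genes with 95% intervals, among injured pups (red) and among controls (blue). All points are open, since none passed an adjusted p of 0.05, and Trpm8 among controls has the highest value, at 1.31.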

How the data were processed

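Per the file headers, Agilent Feature Extraction 9.5.3.1 made the spot intensity in the authors' scanner files, which is linear and already corrected for background. A table of log2 values that the authors deposited, centred per probe, was used as an alternative. Its arrays correlated at 0.998 to 0.9998 with the recomputed values centred in the same way, so the match was close but not exact.

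Processed signals were divided by the array's 75th percentile over spots that were not controls, floored at 0.005 of it and log2-transformed; outlier spots were left out and spots of 1 probe averaged. A probe was kept if at least 1 group had it well above background on each of its 3 arrays. Probes were named by accession through RefSeq's GRCr8 gene table: 15175 of 41012 probes carried 1 of 12200 symbols, and unnamed probes stayed in the test. The brightest filtered probe stood for a gene.

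The 12 arrays entered 1 fit in limma 3.58.1 (R 4.3.3) with a mean per group, 5 contrasts, two-sided tests and Benjamini-Hochberg adjustment over 25901 features at 0.05. It was tested first on simulated data with 100 changes of each size placed in injured saline pups. Of changes of 1 log2 unit 74% were recovered, and 92% of those of 2, with 12 false calls among the other features. Real changes of about 1 unit can thus fail to pass. In the data far more features changed with injury, with 5134 of 9281 named genes called in saline pups. The adjustment is less strict in that case, so the recovered shares do not carry over to the injury contrasts. Standard errors and 95% intervals are limma's moderated ones, with 1 spread per gene shared by the 4 groups. The p-values measure that spread between the pups of a group. Groups came from the labels, and 3 arrays a group limit the precision.

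Per class up to 4 members with the lowest p in saline pups were described with full statistics, with all that were higher, and other members by a value or count. From each marker or partner list up to 4 genes were named, with other markers where a tissue check or an exception needed them. Members and lists were chosen with earlier results of these data known. Alternatives were background correction (normexp), scaling, filter, floor, probe choice, the authors' table, a replicate block and leaving out each array. The scanner files hold no mean signal, so normexp used the median signal in place of the planned mean. Sequences are RefSeq's, on GRCr8, from a table oriented in the sense of each gene. Some members are not reported here.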

Additional observations from a re-analysis of the deposited data

How the results depend on the processing

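The count of channel genes called stayed within 1.5 times its value under every alternative. In saline pups it was 33 to 37 under other backgrounds, scalings, filters, floors, probe choices, the authors' table, the replicate block or a fit of only the 2 groups, and 30 to 37 when 1 array was left out. In MCI-186 pups these ranges were 31 to 35 and 30 to 37. The MCI-186 contrasts and the difference between arms gave 0 throughout. Of the calls, 29 of 36 in saline pups and 30 of 34 in MCI-186 pups held under every alternative run. Those that did not were Cacna1e, Cacnb1, Cacnb2, Cacng4, Cacng8, Hcn2 and Trpv1 in saline pups and Cacng4, Cacng6, Hcn3 and Scn3b in MCI-186 pups. Of the called injury differences 1 changed sign: with normexp that of Cacng4 in MCI-186 pups was -0.028, and the cause was not tested. Another 5, none of them called, changed sign under some alternative: Trpc4ap in both arms, Trpm8 and Trpv2 in saline pups and Trpv1 in MCI-186 pups. Calls were gained under some alternatives by Cacng3 in both arms, by Hcn3 and Scn9a in saline pups and by Cacnb1, Cacng8 and Cacna2d3 in MCI-186 pups. With quantile normalization Scn3b in MCI-186 pups was -0.15 (limma adjusted p = 0.23). Trpm2, Trpc6 and Trpv4 kept their calls throughout, with saline differences of 1.79 to 2.08, 0.57 to 0.89 and 0.46 to 1.06, and MCI-186 differences of 1.92 to 2.45, 0.71 to 1.18 and 0.56 to 1.17.

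The labels do not say that the replicate numbers pair the pups, and none was assumed. Same-numbered deviations correlated between -0.23 and 0.54, which with 3 arrays a group cannot show whether pairing is present or absent. With the replicate number as a block, 37 and 32 genes were called in the 2 arms, 0 in the MCI-186 contrasts and 0 for the difference between arms. Precision is limited by 3 arrays a group and, for Cacng4, Cacng6 and Trpm8, by signal near background. Other dim probes, such as those of Trpv1 and Cacna2d2, had signals as low as that of Cacng4 in some groups.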
